A study of Mus musculus with 3 samples.

Results

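The genes described here are the small leucine-rich proteoglycans Dcn (decorin), Bgn (biglycan), Aspn (asporin), Lum (lumican), Fmod (fibromodulin), Kera (keratocan), Prelp (proline- and arginine-rich end leucine-rich repeat protein), Ogn (osteoglycin, also called mimecan) and Podn (podocan). They were chosen by gene symbol, and they are 9 of the 32285 genes in each of 3 deposited count matrices. The matrices are single-cell RNA sequencing libraries from the quadriceps of wildtype (WT) C57BL/6 mice. A volumetric muscle loss, the surgical removal of a block of muscle, had been filled with polycaprolactone (PCL) particles, a degradable polyester, and muscle and implant were taken at week 6. All 3 libraries (replicates 1, 2 and 3) belong to this 1 group, VML with PCL, so every comparison was made between kinds of cells within the libraries. Dead cells had been removed, and CD45+ leukocytes and CD45- stromal cells had been parted with magnetic beads and mixed again at 1:1. The sample titles call the libraries CD45 enriched. Whether each replicate is a mouse of its own is not stated. The fits set aside what was common to each library. The p-values thus reflect how differences between kinds of cells varied from library to library, and nothing wider.

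Small leucine-rich proteoglycans are secreted proteins built from a chain of leucine-rich repeats, which bind collagen fibrils and govern how thick and how evenly spaced the fibrils become. Decorin, biglycan and asporin form class I. Decorin and biglycan carry chondroitin or dermatan sulphate chains, decorin also holds TGF-beta, and soluble biglycan is a ligand of Toll-like receptors. Lumican, fibromodulin, keratocan and PRELP form class II, of which all but PRELP can carry keratan sulphate; fibromodulin is best known from tendon and keratocan from cornea. Osteoglycin belongs to class III and podocan to class V. In skeletal muscle they lie mainly in the connective tissue between the fibres and in the tendon that continues from it.

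Most of these genes lie beside another member of the family in the RefSeq annotation of the mouse genome. Dcn, Lum and Kera stand in a row with Epyc on chromosome 10, Prelp and Fmod with Optc on chromosome 1, and Aspn and Ogn with Ecm2 and Omd on chromosome 13, while Bgn is on chromosome X and Podn on chromosome 4. RefSeq promoter windows (build GRCm38.p6, 250 bases before to 50 bases after the start, 300 bases in all) were found for 7 of the 9 genes, not for Dcn and Lum. Those of Fmod, Kera and Prelp are shown because these genes set tenocyte-like cells apart below, and that of Bgn because it did not differ there. Capitals mark each match to the E-box motif CANNTG, which reads the same way on both strands. The Fmod window is chr1:134037004-134037303 (+ strand), the Kera window chr10:97606955-97607254 (+ strand), the Prelp window chr1:133921352-133921651 (- strand) and the Bgn window chrX:73483351-73483650 (+ strand).
Fmod: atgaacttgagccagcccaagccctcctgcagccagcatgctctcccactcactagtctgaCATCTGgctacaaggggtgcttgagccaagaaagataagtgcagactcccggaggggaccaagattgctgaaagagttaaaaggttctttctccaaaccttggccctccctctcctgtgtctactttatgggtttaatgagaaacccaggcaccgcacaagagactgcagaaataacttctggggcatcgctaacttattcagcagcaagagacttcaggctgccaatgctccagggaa
Kera: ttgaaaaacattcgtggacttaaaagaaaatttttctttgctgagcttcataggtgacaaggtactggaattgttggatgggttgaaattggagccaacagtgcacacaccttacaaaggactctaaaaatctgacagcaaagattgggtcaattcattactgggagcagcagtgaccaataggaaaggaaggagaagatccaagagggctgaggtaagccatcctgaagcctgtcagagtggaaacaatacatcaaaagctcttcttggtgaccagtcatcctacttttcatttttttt
Prelp: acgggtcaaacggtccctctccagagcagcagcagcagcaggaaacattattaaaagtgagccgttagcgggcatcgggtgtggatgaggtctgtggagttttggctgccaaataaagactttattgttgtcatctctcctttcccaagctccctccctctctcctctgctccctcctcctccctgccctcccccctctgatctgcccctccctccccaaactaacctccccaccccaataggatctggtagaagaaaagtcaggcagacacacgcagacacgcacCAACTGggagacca
Bgn: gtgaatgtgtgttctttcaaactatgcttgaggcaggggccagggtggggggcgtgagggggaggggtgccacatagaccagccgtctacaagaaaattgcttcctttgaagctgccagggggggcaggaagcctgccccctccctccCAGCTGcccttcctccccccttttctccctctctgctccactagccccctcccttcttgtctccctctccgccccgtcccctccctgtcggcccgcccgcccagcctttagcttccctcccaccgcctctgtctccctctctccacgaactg
The motif had 1 match in Fmod (at base 62 of the window), 1 in Prelp (base 287), 1 in Bgn (base 149) and 0 in Kera; of the promoters not shown, Ogn had 4 matches, Aspn 2 and the 2 Podn promoters 1 and 3. It is common, since 72.3% of 32841 promoters of this length hold it, and a match is a description of the sequence, not a binding site. No match in Kera says only that these letters are not in this window.

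Replicates 1, 2 and 3 held 6068, 8643 and 4996 barcodes and 136519688, 192348779 and 104482261 UMIs (unique molecular identifiers, 1 per captured molecule). After filters on depth, mitochondrial share and doublets 17906 cells were kept. Clusters were built without these genes and named "-like" from marker genes, none of which is one of the 9. The kept cells were not evenly split in any library. Stromal-like classes were 52.9%, 80.5% and 56.2% of them in replicates 1, 2 and 3, and immune-like classes 37.9%, 14.7% and 36.6%. Fibroblast-like cells were the largest stromal class with 9860 cells, 71.3% of the kept cells in replicate 2 and 40.3% and 46.0% in replicates 1 and 3. The remaining stromal classes had 779 endothelial-like, 246 muscle fibre-like, 237 lymphatic endothelial-like, 216 tenocyte-like, 199 pericyte-like and 93 smooth muscle-like cells. Perineurial-like (23), Schwann-like (40) and satellite- or myoblast-like (52) cells had under 20 cells in some library and are given as values only. The muscle fibre-like droplets were shallow, with a median of 1546 UMIs against 26546 in fibroblast-like cells. The library pairs shared 13, 13 and 10 cell barcodes. Levels are CPM (UMI counts scaled to the total of each sum, with TMM factors) of summed cells, given for replicates 1, 2 and 3 in that order or as mean ± SD (n = 3). They carry no length term, since each UMI is 1 molecule, and a level does not tell more molecules in every cell from more cells with the gene. Every adjusted p given as edgeR's is the Benjamini-Hochberg value of its quasi-likelihood test. A gene was called higher or lower where that value was under 0.05 and the log2 difference was at least 1 in size.

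Fibroblast-like cells carried more Dcn, Lum, Bgn, Ogn and Podn, and less Fmod and Kera, than all other stromal-like cells pooled. Dcn, the most abundant of the 9, had 7322, 8256 and 7845 CPM in fibroblast-like cells, against 1754, 2725 and 1170.2 CPM in the others (log2 difference 2.08, SE 0.21, edgeR adjusted p = 0.000267). Bgn had 2363, 2826 and 2485 CPM, against 461, 720.0 and 536 CPM (log2 difference 2.13, SE 0.09, edgeR adjusted p = 7.59e-06). The groups did not overlap for either gene. Lum, which shares its chromosome neighbourhood with Dcn, had 1239.8, 1789 and 1897 CPM in fibroblast-like cells, against 156, 348 and 91.2 CPM in the others (log2 difference 3.16, SE 0.37, edgeR adjusted p = 0.000573). Podn, thinly expressed throughout, had 70.8, 91.5 and 75.8 CPM, against 5.9, 13.7 and 10.3 CPM (log2 difference 2.98, SE 0.16, edgeR adjusted p = 1.78e-05). In both cases the lowest fibroblast-like library lay above the highest of the others.

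Fmod and Kera, the class II members known from tendon and cornea, ran the opposite way. Fmod had 57.8, 46.3 and 36.8 CPM in fibroblast-like cells, against 1040.2, 1439.8 and 801 CPM in the others (log2 difference -4.58, SE 0.17, edgeR adjusted p = 4.15e-06). Kera had 29.1, 40.9 and 47.8 CPM, against 202, 330.2 and 120.4 CPM (log2 difference -2.46, SE 0.32, edgeR adjusted p = 0.000926). Every library showed the lower level in fibroblast-like cells. The side of the others held 216 tenocyte-like cells among 1885, and without them both genes turned round. The log2 difference was then 2.76 for Fmod (edgeR adjusted p = 0.000199) and 6.73 for Kera (edgeR adjusted p = 7.55e-06). Of the 9 genes 8 were then higher and 0 lower. Among all genes 2750 were then called higher and 2974 lower, against 2358 and 2973 with the tenocyte-like cells.

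Ogn was higher in fibroblast-like cells, with 535, 515 and 572 CPM, against 238, 269.9 and 229.7 CPM in the others (log2 difference 1.09, SE 0.09, edgeR adjusted p = 0.000126). Its log2 difference lay under 1 without replicate 3 (0.99) and with every class weighted equally (0.69). Aspn had 499.7, 419 and 417 CPM, against 216, 257 and 176 CPM, and fell just short of the size threshold (log2 difference 1.00, SE 0.12, edgeR adjusted p = 0.000622). Prelp had 279.7, 234 and 199.6 CPM, against 453, 482 and 222 CPM, and was not called (log2 difference -0.69, SE 0.16, edgeR adjusted p = 0.0112). Of the 9 genes, 5 were called higher and 2 lower, beside 13.4% higher and 16.9% lower among all 17545 genes tested. Their median log2 difference was 1.09, and over all genes tested it was -0.0046.

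The stromal-like cells taken as a whole drew most of these transcripts from fibroblast-like cells, with Fmod as the exception. Such shares follow cell number and depth too, since fibroblast-like cells were 9860 of 11745 stromal-like cells. Their summed UMIs of all genes were 78851988, 144482174 and 65626453 in replicates 1, 2 and 3. Endothelial-like cells, the next largest stromal sum, had 4753040, 4060791 and 2302019. Fibroblast-like cells supplied 97.1% of the stromal Dcn UMIs, 98.5% of Lum, 97.5% of Bgn, 98.6% of Podn, 94.9% of Ogn and 94.5% of Aspn. For Prelp the share was 83.3% and for Kera 59.1%. By level both were nonetheless lower in fibroblast-like cells than in the pooled others in every library, though Prelp was not called. Without tenocyte-like cells among the others both turned, to a log2 difference of 6.73 for Kera and 0.89 for Prelp, the latter under the size threshold. Of the Fmod UMIs 73.3% came from the 216 tenocyte-like cells and 26.3% from the 9860 fibroblast-like cells.

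Class by class, tenocyte-like cells had 5 of the 9 genes above fibroblast-like cells (Fmod, Kera, Prelp, Ogn and Aspn), beside 6.51% of the 12045 genes tested; the remaining 4 were not called. In the other classes every call was lower than in fibroblast-like cells. There were 9 of 9 lower in endothelial-like cells (beside 16.9% of all genes), 8 in lymphatic endothelial-like (19.2%), 8 in pericyte-like (13.2%), 7 in smooth muscle-like (18.2%) and 9 in muscle fibre-like cells (32.8%). In muscle fibre-like droplets the median log2 difference of all genes was itself -0.64; in the other 5 contrasts it lay between -0.12 and 0.06. The plot of levels by stromal class shows the 3 libraries of each class.

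**Figure D1:**
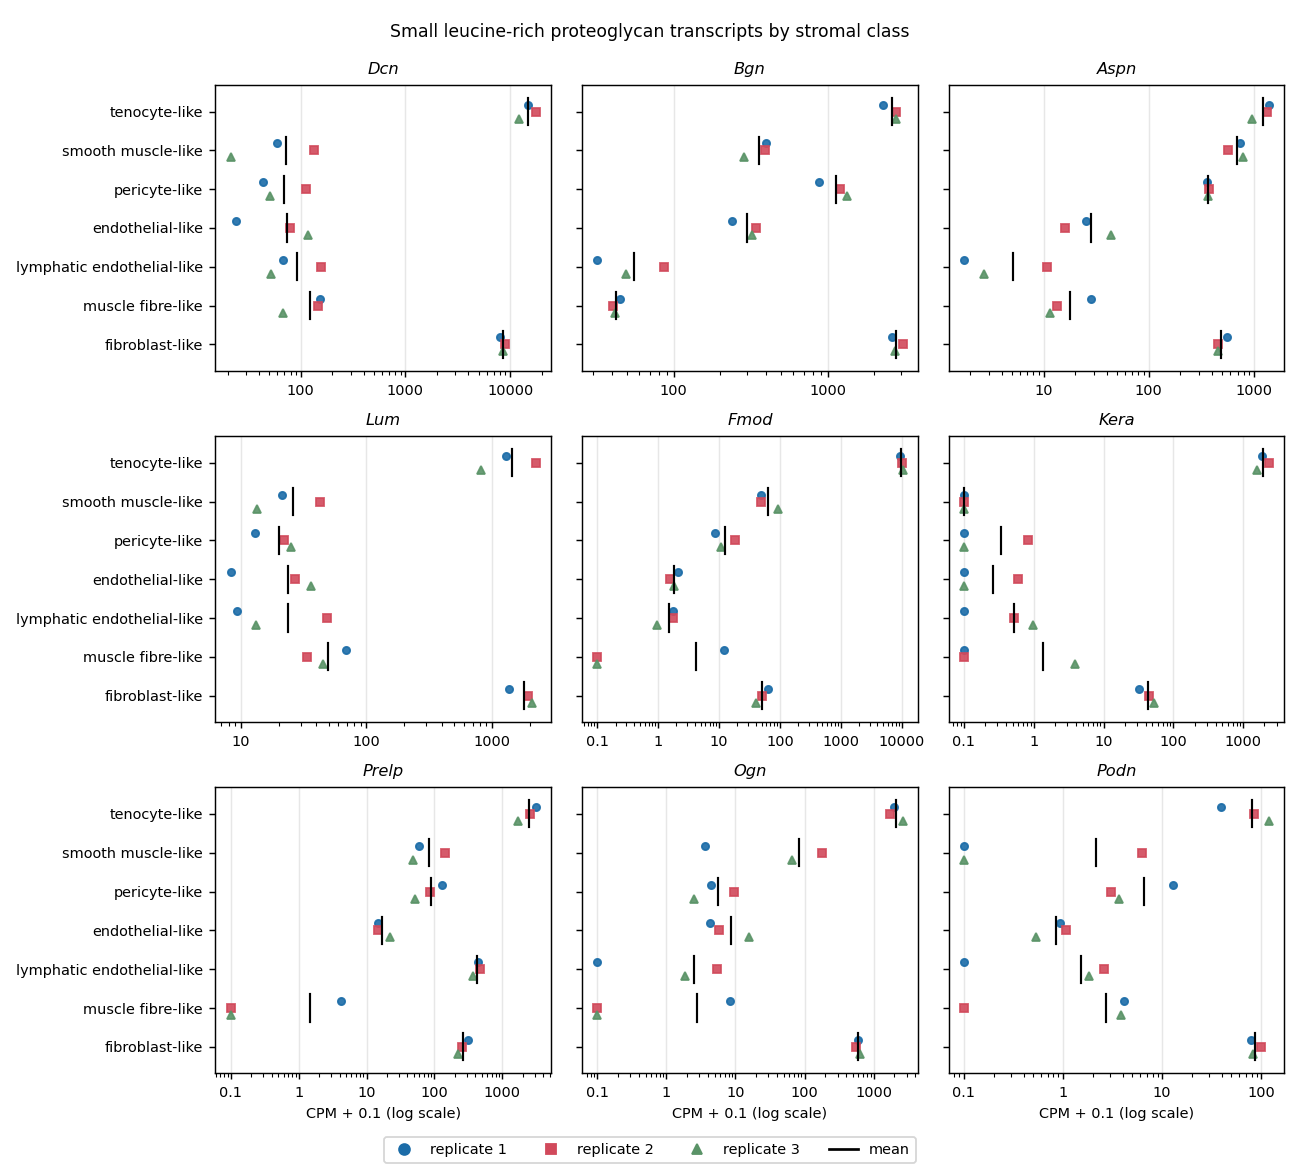
Level of each gene (CPM + 0.1, log axis) in the 3 libraries of each tested stromal class. Points are libraries and ticks are means. Fmod and Kera stand far to the right in tenocyte-like cells, Prelp is also high in lymphatic endothelial-like cells, and Dcn and Lum are high only in tenocyte-like and fibroblast-like cells among the classes drawn.

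Among class I genes, Dcn had 14866, 17656 and 12089 CPM in tenocyte-like cells, against 8075, 8969 and 8597 CPM in fibroblast-like cells. The libraries did not overlap, but the difference was not called (log2 difference 0.84, SE 0.39, edgeR adjusted p = 0.127). Perineurial-like cells, only 23 in all, had 4879, 7846 and 8956 CPM. The means in endothelial-like, lymphatic endothelial-like, pericyte-like, smooth muscle-like and muscle fibre-like cells lay between 69.2 and 123 CPM, against 140.4 CPM in neutrophil-like cells, which are not known to make decorin. In raw CPM, without the TMM factors, they lay between 66.5 and 94.3 CPM, against 72.9 CPM in neutrophil-like cells. Whether they lay below neutrophil-like cells thus turned with the scaling for some of them, the part of free RNA was not tested, and their fitted differences are not given.

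Bgn reached beyond the fibroblast lineage into the cells of vessel walls. Tenocyte-like cells had 2279, 2783 and 2798 CPM and pericyte-like cells, which wrap capillaries, 875, 1201 and 1333 CPM, against 2605, 3071 and 2723 CPM in fibroblast-like cells. The tenocyte-like and fibroblast-like libraries overlapped (log2 difference -0.03), and every pericyte-like library was below them (log2 difference -1.22, SE 0.21, edgeR adjusted p = 5.99e-05). With doublets kept in, the pericyte-like difference was -1.15 with an edgeR adjusted p of 0.137. Smooth muscle-like cells had 401, 393 and 286 CPM (log2 difference -2.78) and endothelial-like cells 239, 344 and 321 CPM (log2 difference -3.04, SE 0.22, edgeR adjusted p = 9.82e-11). Both stood above the 55.4 CPM of neutrophil-like cells. Lymphatic endothelial-like cells had 55.6 CPM, no higher than neutrophil-like cells by this scale, but in raw CPM they had 57.1 CPM, against 28.8 CPM.

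Aspn, the class I gene known for periodontal ligament and cartilage, was also found in cells of the vessel wall. Tenocyte-like cells had 1399, 1327 and 960.0 CPM, against 551, 455 and 457 CPM in fibroblast-like cells, with no overlap (log2 difference 1.41, SE 0.27, edgeR adjusted p = 0.000394). Smooth muscle-like cells had 731, 564 and 789.8 CPM, all above the fibroblast-like libraries, but the difference did not reach the size threshold (log2 difference 0.69, SE 0.27, edgeR adjusted p = 0.0496). Pericyte-like cells had 358, 377 and 365 CPM, a little below fibroblast-like cells and not called (log2 difference -0.31, SE 0.27, edgeR adjusted p = 0.378). Endothelial-like cells were far lower, at 28.3 ± 14.2 CPM (log2 difference -3.98).

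Among class II genes, Lum was, like Dcn, high only in tenocyte-like and fibroblast-like cells of the classes tested. It had 1294, 2239.9 and 816 CPM in tenocyte-like cells, against 1367, 1943 and 2078 CPM in fibroblast-like cells; the libraries overlapped (log2 difference -0.28, SE 0.33, edgeR adjusted p = 0.6). Every other tested class averaged at most 49.3 CPM, below the 59.5 CPM of neutrophil-like cells, and in raw CPM at most 30.2, against 31.6 CPM. Perineurial-like cells varied widely, at 19, 426 and 58.5 CPM.

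Of the 9 genes, Fmod set tenocyte-like cells furthest apart from fibroblast-like cells. They had 9350.5, 10159.7 and 10374 CPM, against 63.7, 50.3 and 40.3 CPM in fibroblast-like cells (log2 difference 7.68, SE 0.30, edgeR adjusted p = 1.79e-13). All 3 tenocyte-like libraries lay within a narrow band, 9962 ± 540.0 CPM. Smooth muscle-like cells had 49.2, 49.1 and 93.4 CPM, which overlapped the fibroblast-like libraries (log2 difference 0.53, SE 0.31, edgeR adjusted p = 0.18). Pericyte-like cells had 8.58, 18.3 and 10.8 CPM (log2 difference -1.87, SE 0.32, edgeR adjusted p = 5.42e-05), a call that was lost with doublets kept in (-0.57, edgeR adjusted p = 0.494). Endothelial-like (1.75 CPM) and lymphatic endothelial-like cells (1.39 CPM) were under the 7.0 CPM of neutrophil-like cells.

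Kera was confined still more narrowly, among the classes tested, to tenocyte-like and fibroblast-like cells. Tenocyte-like cells had 1825, 2339 and 1564 CPM, against 32.1, 44.4 and 52.3 CPM in fibroblast-like cells (log2 difference 5.56, SE 0.23, edgeR adjusted p = 1.29e-12). The summed UMIs of the other classes were 0 in smooth muscle-like, 1 in pericyte-like, 2 in endothelial-like, 2 in lymphatic endothelial-like and 1 in muscle fibre-like cells, and neutrophil-like cells had 2. With 0 UMIs and a floor of 3 counts over the group, smooth muscle-like cells were at least 12-fold lower than fibroblast-like cells.

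Prelp, which binds basement membrane components as well as collagen, had the widest reach of class II. Tenocyte-like cells had 3127, 2538 and 1703 CPM, against 308, 254 and 219 CPM in fibroblast-like cells (log2 difference 3.28, SE 0.25, edgeR adjusted p = 2.7e-09). Lymphatic endothelial-like cells had 443, 464 and 373 CPM, each library above every fibroblast-like library, though short of the size threshold (log2 difference 0.86, SE 0.24, edgeR adjusted p = 0.00388). Endothelial-like cells of blood vessels had 14.6, 14.7 and 21.7 CPM (log2 difference -3.78, SE 0.28, edgeR adjusted p = 1.36e-10). The difference between lymphatic and blood endothelial-like cells was not fitted on its own; their libraries did not overlap. Pericyte-like cells had 129, 84.8 and 51.5 CPM (log2 difference -1.50, SE 0.26, edgeR adjusted p = 6.5e-05) and smooth muscle-like cells 59.8, 141 and 48 CPM, where replicate 2 stood above the others (log2 difference -1.48, and -2.12 without it).

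Ogn, the class III gene, had 1972, 1706 and 2618 CPM in tenocyte-like cells, against 589.8, 559.8 and 627 CPM in fibroblast-like cells (log2 difference 1.88, SE 0.38, edgeR adjusted p = 0.000642). The libraries did not overlap, but DESeq2 gave an adjusted p of 0.0577 for a log2 difference of 1.94, and with doublets kept in edgeR's adjusted p was 0.0806. Perineurial-like (571 CPM), Schwann-like (319 CPM) and satellite- or myoblast-like cells (206 CPM) also held Ogn. Smooth muscle-like cells were uneven, at 3.52, 181 and 66.7 CPM, so their difference (-2.71) ran between -3.98 without replicate 2 and -2.10 without replicate 1. Podn, the class V gene, had 39.2, 85.2 and 119.8 CPM in tenocyte-like cells, against 78.1, 99.4 and 83.1 CPM in fibroblast-like cells, and the libraries overlapped (log2 difference -0.15, SE 0.25, edgeR adjusted p = 0.734). Elsewhere Podn was nearly absent, with 19 UMIs in pericyte-like, 9 in endothelial-like, 8 in lymphatic endothelial-like and 2 in smooth muscle-like cells.

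The mix of the 9 genes differed between classes, as the plot of their shares shows. Together they were 3.05% ± 0.185 of all UMIs in tenocyte-like cells, against 1.21% ± 0.0632 in fibroblast-like cells (n = 3), and 0.165% ± 0.0218 in pericyte-like, 0.135% ± 0.00905 in smooth muscle-like and 0.0627% ± 0.0141 in lymphatic endothelial-like cells. In tenocyte-like cells Dcn made up 40.3% ± 3.4 of these UMIs and Fmod 27.4% ± 3.51, against 58.3% ± 0.672 and 0.354% ± 0.10 in fibroblast-like cells. The second place in fibroblast-like cells was held by Bgn (19.1% ± 0.789) and the third by Lum (12.2% ± 2.01). In lymphatic endothelial-like cells Prelp alone was 71.7% ± 10.4, in smooth muscle-like cells Aspn was 50.8% ± 11.9 and in pericyte-like cells Bgn was 66.2% ± 5.92. In neutrophil-like cells the 9 genes together were 0.0155% ± 0.00619 of all UMIs.

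**Figure D2:**
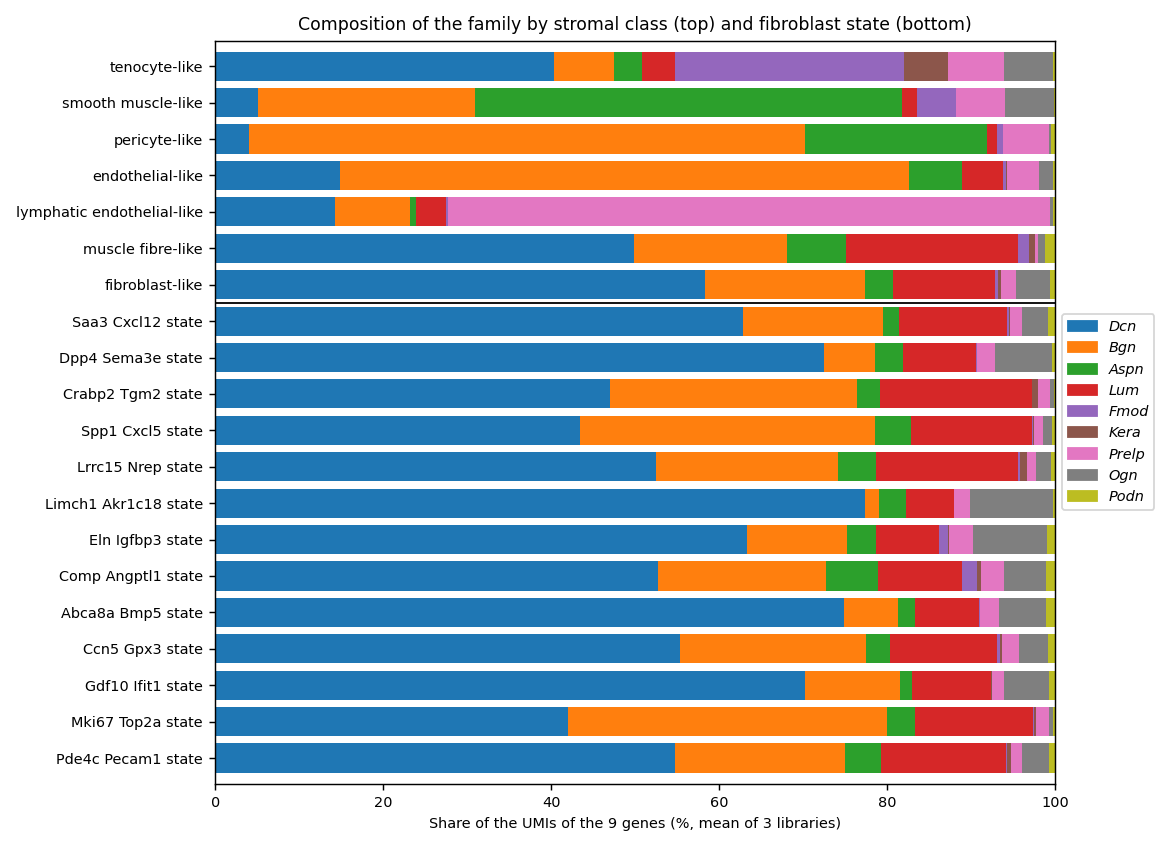
Share of each gene (%, horizontal axis) among the UMIs of the 9 genes in each stromal class and fibroblast state, as the mean of 3 libraries. Dcn leads in tenocyte-like and fibroblast-like cells, with Fmod second in tenocyte-like cells, while Prelp leads in lymphatic endothelial-like, Aspn in smooth muscle-like and Bgn in pericyte-like and endothelial-like cells.

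Fibroblast-like cells were then divided into 14 states, named after leading genes, of which 13 had at least 20 cells in every library. The states were clustered from the same cells, without these 9 genes but with genes that vary with them, so the calls below describe how the 9 genes follow the states. Each state was compared with the mean of the logs of the other 12, and 117 values were tested, of which 25 were called higher and 19 lower. The Eln Igfbp3 state (800 cells, high in elastin) had 6 of 9 higher, beside 5.42% of all 14237 genes tested. The Comp Angptl1 state (708 cells, led by a gene of tendon and cartilage matrix) had 5 (4.78%) and the Ccn5 Gpx3 state (670 cells) 4 (3.14%). The Limch1 Akr1c18 state (835 cells) had 5 lower (9.61%) and 1 higher (7.52%), the cycling Mki67 Top2a state (363 cells) 4 lower (9.02%) and the Spp1 Cxcl5 state (955 cells) 3 lower (7.04%).

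The Crabp2 Tgm2 state (974 cells) had 1 higher (6.60%) and 3 lower (9.15%). The Dpp4 Sema3e state (1080 cells) likewise had 1 higher (4.70%) and 3 lower (5.40%). The Abca8a Bmp5 state (695 cells) had 2 higher (8.83%) and 1 lower (5.73%), and the Lrrc15 Nrep state (918 cells) 2 higher (2.59%). The Saa3 Cxcl12 (1237 cells), Gdf10 Ifit1 (436 cells) and Pde4c Pecam1 (161 cells) states had 1 higher each, beside 5.05%, 7.11% and 9.43% of all genes. Without cells with a UMI of the tendon markers Tnmd, Scx or Cilp2, the Eln Igfbp3, Comp Angptl1 and Ccn5 Gpx3 states had 4 higher each, and the Eln Igfbp3 state had 1 lower, Kera. Over the 13 states together, 11657 gene calls were then higher and 9371 lower, against 11782 and 9730 with these cells. Shares of all genes by state are not given for this fit. With all cells, the median log2 difference of the 9 genes was 1.03 in the Eln Igfbp3 state, 1.09 in the Comp Angptl1 state and -1.37 in the Limch1 Akr1c18 state. Over all genes tested it was -0.002, 0.008 and -0.020 in these states.

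**Figure D3:**
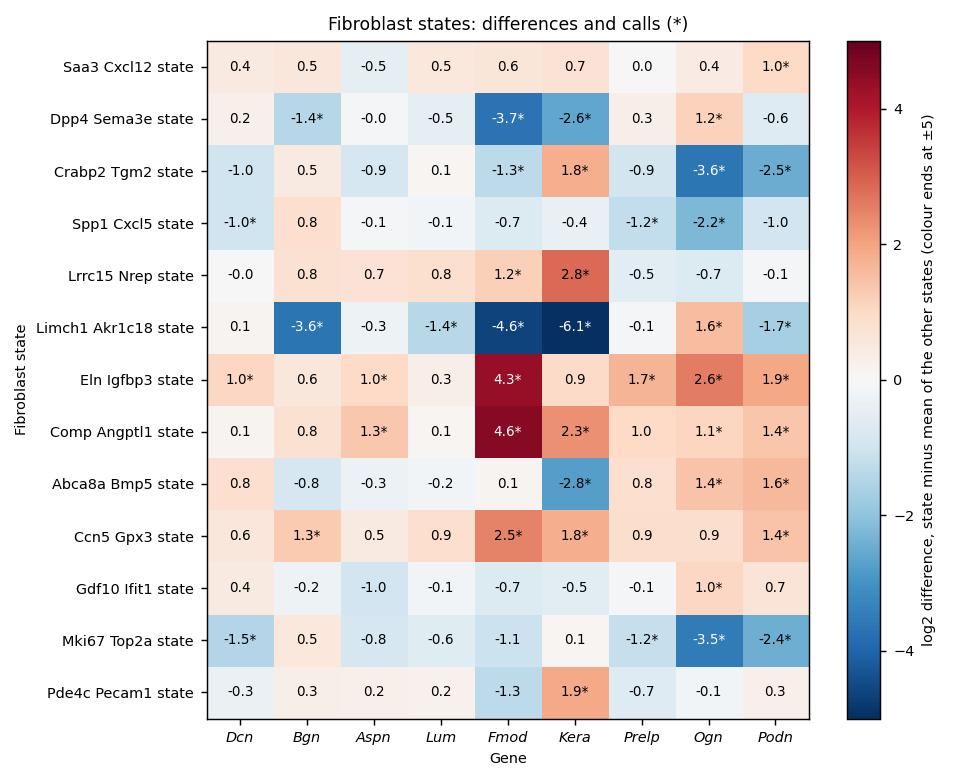
Log2 difference of each gene (columns) in each fibroblast state (rows) from the mean of the other states, with colours ending at -5 and 5 and a star on each called value. The Eln Igfbp3 row is higher for most genes and the Limch1 Akr1c18 row lower for all but Ogn and the uncalled genes, while the Fmod and Kera columns hold the widest range.

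Dcn varied little in relation to its abundance, 4.9-fold between the highest and lowest state means. It was called higher in the Eln Igfbp3 state, with 13497, 14253 and 13010.3 CPM, against medians of 7509.6, 8329 and 7521 CPM over the other 12 states (log2 difference 1.03, SE 0.04, edgeR adjusted p = 5.15e-19). It was called lower in the Mki67 Top2a state, with 2612, 2992 and 2708 CPM, against medians of 7860.5, 8653 and 7804 CPM (log2 difference -1.48, SE 0.05, edgeR adjusted p = 1.24e-21). The Eln Igfbp3 libraries were the highest and the Mki67 Top2a libraries the lowest of any state, without overlap. The Spp1 Cxcl5 state had 3784, 3969 and 3734 CPM (log2 difference -1.01) and lay under the size threshold with no filter (-0.97) and without replicate 2 (-0.99). The Crabp2 Tgm2 state, at a mean of 3951 CPM, overlapped it and fell just short of the size threshold (log2 difference -0.99, edgeR adjusted p = 5.52e-17). Over the whole order of states, 8 of 12 neighbouring pairs had overlapping libraries.

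Bgn split the states more sharply, 24.3-fold between means. The Ccn5 Gpx3 state had 3776, 4872 and 4056 CPM, against medians of 2243, 2729 and 2295 CPM over the other 12 states (log2 difference 1.32, SE 0.08, edgeR adjusted p = 4.18e-15). The Dpp4 Sema3e state had 741, 670.5 and 698 CPM (log2 difference -1.44, SE 0.10, edgeR adjusted p = 3.07e-13) and the Limch1 Akr1c18 state only 142, 164 and 218 CPM, against medians of 2327, 2793 and 2449 CPM (log2 difference -3.64, SE 0.13, edgeR adjusted p = 4.03e-22). Both states have Sema3c, Efhd1 and Anxa3 among their leading genes, and their libraries were the lowest of all states for Bgn. The cycling Mki67 Top2a state, low in Dcn, had 2423, 2803 and 2324 CPM of Bgn and was not called (log2 difference 0.55).

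Aspn, the remaining class I gene, was called higher in the Comp Angptl1 state, with 1047, 779 and 836 CPM, against medians of 370.1, 312 and 363 CPM over the other 12 states (log2 difference 1.34, SE 0.09, edgeR adjusted p = 3.56e-13). It was also called in the Eln Igfbp3 state, with 905, 625 and 627 CPM (log2 difference 1.01, SE 0.10, edgeR adjusted p = 2.93e-10), where replicate 1 was the highest. The difference was 0.89 without it, 0.98 with no filter and 0.99 with doublets kept in. No state was called lower; the lowest, the Gdf10 Ifit1 state, had 188, 199 and 202 CPM (log2 difference -0.98). All 12 neighbouring pairs in the order of states overlapped.

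**Figure D4:**
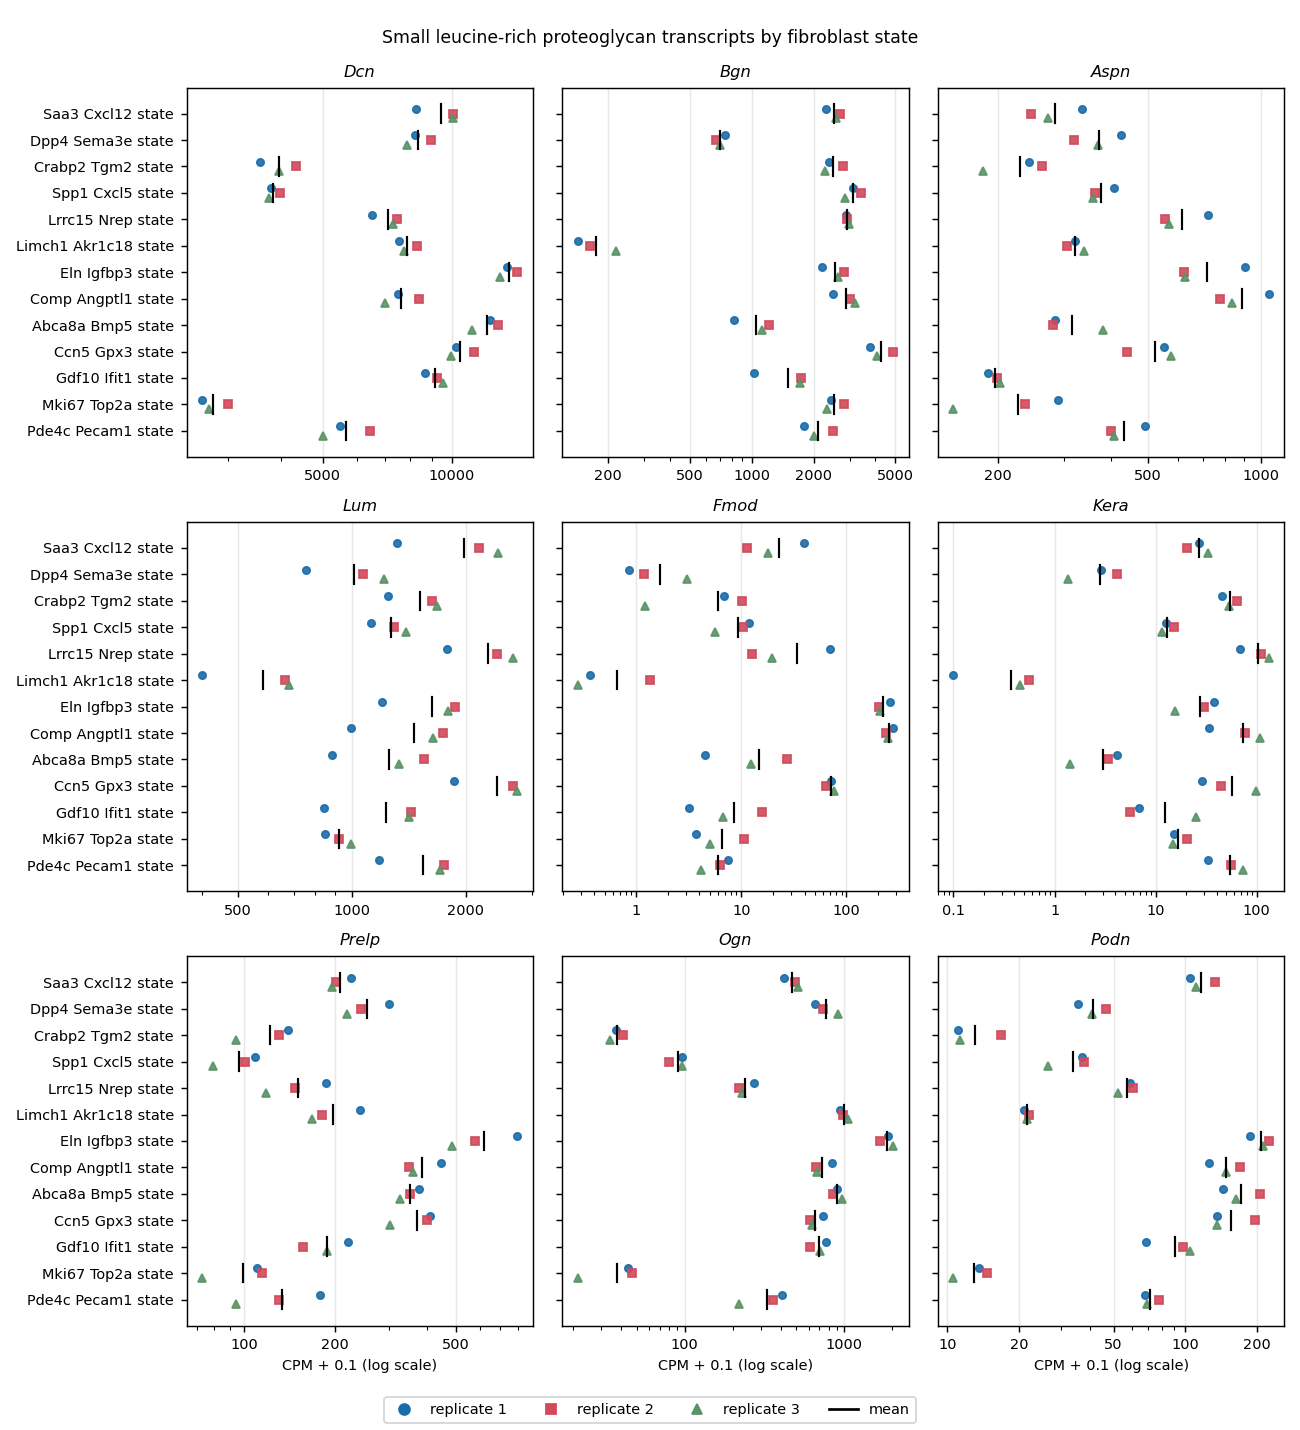
Level of each gene (CPM + 0.1, log axis) in the 3 libraries of each fibroblast state; points are libraries and ticks are means. Dcn, Lum and Aspn stay within a narrow band, while Fmod, Kera and Ogn span far more of the axis.

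Of class II, Lum was the steadiest across states, with 0 higher calls and 1 lower. The Limch1 Akr1c18 state had 401, 664 and 680.3 CPM, against medians of 1151, 1684 and 1659.8 CPM over the other 12 states (log2 difference -1.37, SE 0.08, edgeR adjusted p = 2.44e-15). The highest level, 1859, 2665 and 2737 CPM in the Ccn5 Gpx3 state, was not called (log2 difference 0.85). Replicate 1 was the lowest library in each of these states.

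Prelp was called higher in the Eln Igfbp3 state alone of the 13, with 796, 578 and 484 CPM, against medians of 222, 169 and 178 CPM over the other 12 states (log2 difference 1.71, SE 0.07, edgeR adjusted p = 1.38e-19). The Comp Angptl1 (log2 difference 0.98), Ccn5 Gpx3 (0.87) and Abca8a Bmp5 states (0.84) were higher in all 3 libraries but short of the size threshold. The Mki67 Top2a state had 111, 115 and 72.8 CPM (log2 difference -1.15, SE 0.09, edgeR adjusted p = 7.26e-13) and the Spp1 Cxcl5 state 109, 101 and 79 CPM (log2 difference -1.24, SE 0.09, edgeR adjusted p = 1.25e-13). The Eln Igfbp3 libraries lay above those of every other state, and both low states overlapped.

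Fmod was concentrated in the Comp Angptl1 and Eln Igfbp3 states. The Comp Angptl1 state had 278, 240.0 and 252 CPM, against medians of 7.12, 10.9 and 6.01 CPM over the other 12 states (log2 difference 4.56, SE 0.25, edgeR adjusted p = 8.43e-16). The Eln Igfbp3 state had 260.2, 204 and 209 CPM, against medians of 7.12, 10.9 and 6.01 CPM (log2 difference 4.34, SE 0.25, edgeR adjusted p = 1.32e-15). These libraries overlapped each other and lay above those of all other states. The Ccn5 Gpx3 state followed with 71, 64.2 and 76.8 CPM (log2 difference 2.49, SE 0.33, edgeR adjusted p = 1.22e-07). In the Lrrc15 Nrep state replicate 1 stood out, with 69.7, 12.6 and 19.4 CPM; the call (log2 difference 1.19, SE 0.34, edgeR adjusted p = 0.0104) was lost without it (log2 difference 0.19, edgeR adjusted p = 0.773). Levels in the Crabp2 Tgm2 (6.81, 9.98 and 1.11 CPM), Dpp4 Sema3e (0.753, 1.08 and 2.96 CPM) and Limch1 Akr1c18 states (0.259, 1.25 and 0.179 CPM) were called lower, every library under 10 CPM. The first of these calls was lost without replicate 3 (log2 difference -0.95, edgeR adjusted p = 0.142); the Dpp4 Sema3e difference was -3.68 and -4.32 without replicate 3, and the Limch1 Akr1c18 difference -4.62 and -6.06 without replicate 2.

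Kera had another order of states. The Lrrc15 Nrep state, led by a marker of matrix-producing fibroblasts, had 67.5, 109.6 and 131 CPM, against medians of 20.9, 20.3 and 20.2 CPM over the other 12 states (log2 difference 2.83, SE 0.20, edgeR adjusted p = 1.23e-12). The Comp Angptl1 state had 33.7, 77.2 and 107 CPM (log2 difference 2.27, SE 0.23, edgeR adjusted p = 2.19e-09) and the Crabp2 Tgm2 state 45.1, 63 and 53.1 CPM (log2 difference 1.80, SE 0.21, edgeR adjusted p = 7.44e-09). The Ccn5 Gpx3 and Pde4c Pecam1 states were also called higher (log2 differences 1.83 and 1.88), and these 5 states overlapped in the order of levels. The Abca8a Bmp5 (log2 difference -2.76), Dpp4 Sema3e (-2.61) and Limch1 Akr1c18 states were called lower, the last with 0, 0.454 and 0.357 CPM. The Eln Igfbp3 state, high in Fmod, had 37.7, 29.7 and 15.5 CPM of Kera and was not called (log2 difference 0.94).

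Among the states, the summed level of tendon markers was highest in the Comp Angptl1 state but did not otherwise keep the order of Fmod. Comp, Thbs4 and Kcnma1, part of this sum, are also leading genes of that state, so its first place was partly built in. The summed level of 7 tendon markers (Tnmd, Scx, Mkx, Thbs4, Comp, Cilp2 and Kcnma1, all detected) was 2392 to 2994 CPM over the libraries of the Comp Angptl1 state, 872 to 1598 CPM in the Eln Igfbp3 state, 948 to 1512 CPM in the Lrrc15 Nrep state and 6.97 to 14.4 CPM in the Limch1 Akr1c18 state. In tenocyte-like cells it was 17568 to 22106 CPM. It was also high, 1128 to 1427 CPM, in the Crabp2 Tgm2 state, where Fmod was called lower and Kera higher. The Mki67 Top2a (703 to 1199 CPM) and Spp1 Cxcl5 states (770.5 to 955 CPM) also held these markers, with mean Fmod levels of 6.4 and 9.21 CPM. The Crabp2 Tgm2, Mki67 Top2a and Spp1 Cxcl5 states were deeper (medians 43240, 47279 and 43150 UMIs) than the Eln Igfbp3 state (24423.5 UMIs). Cells with a UMI of Tnmd, Scx or Cilp2 were 173 of 708 in the Comp Angptl1 state and 186 of 800 in the Eln Igfbp3 state. Such cells were fewer in the Crabp2 Tgm2 (56 of 974), Mki67 Top2a (31 of 363) and Spp1 Cxcl5 states (73 of 955). They were 69 of 918 in the Lrrc15 Nrep state and 15 of 835 in the Limch1 Akr1c18 state. Without all such cells Fmod remained higher in the Comp Angptl1 (3.91) and Eln Igfbp3 states (3.57), but was not called in the Lrrc15 Nrep state (0.46, edgeR adjusted p = 0.348). Kera remained higher in the Lrrc15 Nrep (3.28), Crabp2 Tgm2 (2.34) and Comp Angptl1 states (1.40), and in the Eln Igfbp3 state it became lower (-2.70, edgeR adjusted p = 0.00108).

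Ogn had the most calls, 6 higher and 3 lower of 13, and spanned 50.1-fold. The Eln Igfbp3 state had 1898, 1686 and 2032 CPM, against medians of 542, 549 and 569 CPM over the other 12 states (log2 difference 2.57, SE 0.09, edgeR adjusted p = 2.41e-20). The Limch1 Akr1c18 state, low in Bgn and Lum, had 948, 990.2 and 1058 CPM (log2 difference 1.56, SE 0.10, edgeR adjusted p = 1.13e-14). Libraries of the Eln Igfbp3 state lay above all others, and the next states overlapped. The Abca8a Bmp5, Dpp4 Sema3e, Comp Angptl1 and Gdf10 Ifit1 states were also called higher (log2 differences 1.42, 1.17, 1.09 and 1.04). The last was 0.99 with no filter and 0.998 without replicate 1, under the size threshold. The Crabp2 Tgm2 state had 37.2, 41.2 and 33.7 CPM, against medians of 702, 608 and 652 CPM (log2 difference -3.62, SE 0.16, edgeR adjusted p = 1.25e-18). The Mki67 Top2a (-3.51) and Spp1 Cxcl5 states (-2.23) were the other lower calls.

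Podn, at a lower level, shared its highest state with Ogn but not the whole order. The Eln Igfbp3 state had 187, 224 and 212 CPM, against medians of 63.2, 68.9 and 60.3 CPM over the other 12 states (log2 difference 1.93, SE 0.07, edgeR adjusted p = 2.33e-20). The Abca8a Bmp5 state had 145, 207 and 163 CPM (log2 difference 1.61), and the Ccn5 Gpx3 (1.42), Comp Angptl1 (1.40) and Saa3 Cxcl12 states (1.01) were called higher too. The last of these lay just under the size threshold with DESeq2, with no filter and without replicate 2 (0.998, 0.999 and 0.998). The Crabp2 Tgm2 state had 11, 16.6 and 11.2 CPM, against medians of 68, 87.7 and 86.6 CPM (log2 difference -2.48, SE 0.10, edgeR adjusted p = 1.97e-19), and the Mki67 Top2a (-2.43) and Limch1 Akr1c18 states (-1.66) were lower as well. The Limch1 Akr1c18 state, second for Ogn, was thus among the lower calls for Podn, and the Dpp4 Sema3e state, higher for Ogn, was not called (-0.64). The Crabp2 Tgm2 and Mki67 Top2a libraries overlapped and lay below every other state.

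The states differed in the mix of these genes as well as in their amount. They were 2.04% ± 0.0756 of all UMIs in the Eln Igfbp3 state, 1.74% ± 0.0881 in the Abca8a Bmp5 state, 1.72% ± 0.114 in the Ccn5 Gpx3 state and 0.727% ± 0.0343 in the Mki67 Top2a state. Within the 9 genes, Dcn was 77.4% ± 1.47 and Bgn 1.72% ± 0.357 in the Limch1 Akr1c18 state. In the Mki67 Top2a state Dcn was 41.9% ± 0.962 and Bgn 38% ± 1.14, and in the Spp1 Cxcl5 state Bgn was 35.2% ± 1.72. Ogn was 9.86% ± 0.507 in the Limch1 Akr1c18 state and 8.76% ± 1.08 in the Eln Igfbp3 state.

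Counted by cell, after thinning every cell to 2000 UMIs, Fmod was detected in 96.8% of tenocyte-like cells, against 4.18% of fibroblast-like and 0.919% of neutrophil-like cells (means of 3 libraries). Unthinned, the shares were 98.4%, 14.7% and 1.92%, at median depths of 18624, 26546 and 5299.5 UMIs. For Kera the thinned shares were 66.9%, 3.93% and 0.201%, and unthinned 85.2%, 14.6% and 0.56%. Most fibroblast-like cells held no UMI of either gene at these depths. Thinned, Prelp was detected in 85.5% of tenocyte-like and 53.3% of lymphatic endothelial-like cells, against 32.1% of fibroblast-like and 0.846% of neutrophil-like cells. Dcn was near saturation, in 98.4% of tenocyte-like, against 99.2% of fibroblast-like and 14.2% of neutrophil-like cells. Thinning kept 212 of 216 tenocyte-like, 226 of 237 lymphatic endothelial-like, 9760 of 9860 fibroblast-like and 548 of 582 neutrophil-like cells.

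Most cells of both matrix-producing classes carried several of the genes at once. The median number of the 9 with at least 1 UMI, unthinned, was 8 in tenocyte-like cells, against 7 in fibroblast-like cells, in each of the 3 libraries. At least 5 were found in 97.7% of tenocyte-like, 0.77% of endothelial-like and 0% of neutrophil-like cells, against 93.2% of fibroblast-like cells.

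Across single fibroblast-like cells the genes paired up unevenly, as the plot of pairwise correlations shows. Within each library (2276, 5475 and 2109 cells, log of 1 + UMIs per 10000), the highest Pearson r was that of Dcn with Ogn, at a mean of 0.57 (0.55 to 0.59) over the libraries. Ogn with Prelp had 0.49 (0.47 to 0.53), Lum with Bgn 0.47 (0.42 to 0.51) and Dcn with Prelp 0.43 (0.41 to 0.44). Dcn with Lum, neighbours on the chromosome, had 0.37 (0.24 to 0.44). The lowest was Bgn with Ogn at -0.29 (-0.30 to -0.28), and Dcn with Bgn, both class I, lay near 0 at -0.03 (-0.12 to 0.06). The cells of a library share their source and differ in depth, and the level of Bgn correlated positively with depth (r between 0.31 and 0.38 over the libraries) and that of Ogn negatively (-0.24 to -0.17).

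**Figure D5:**
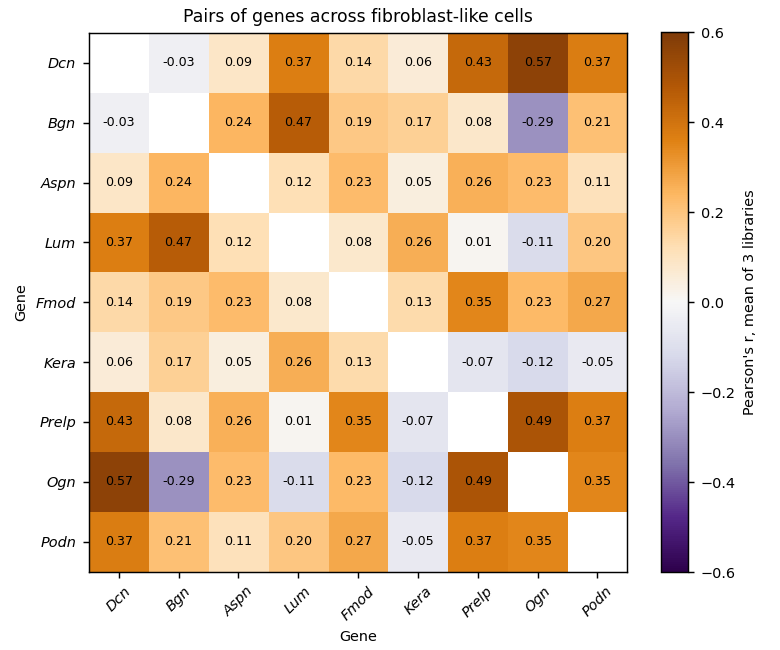
Pearson r between each pair of genes across fibroblast-like cells (colour and number, mean of 3 libraries). Dcn, Ogn, Prelp and Podn form positive pairs, Lum pairs with Bgn, and Bgn with Ogn is negative.

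Across the 19 stromal classes and fibroblast states with at least 20 cells in every library, mean log2(CPM + 1) was correlated with that of 7099 genes. The 3 genes most like each member are given with their Pearson r as a description, since the units share libraries and cells. They were Serpinf1 (0.98), Dnm1 (0.98), Itgbl1 (0.98) for Dcn, Sparc (0.94), Col8a1 (0.93), Kdelr3 (0.93) for Bgn and Nfatc4 (0.95), Arhgef25 (0.95), Itgb5 (0.94) for Aspn. For Lum they were Prrx2 (0.98), Bdh2 (0.97), AW551984 (0.97), for Prelp Atp6ap2 (0.94), Dnajc3 (0.93), Twsg1 (0.91), for Fmod Tnmd (0.97), Zfp185 (0.92), Cilp2 (0.90) and for Kera Mkx (0.94), Scube2 (0.94), Thbs4 (0.93). For Ogn they were Cdon (0.96), Olfml1 (0.93), Itga11 (0.93), and for Podn Apod (0.96), Igf1 (0.96), Svep1 (0.95). Of the 3 genes nearest to Fmod, Tnmd and Cilp2 are tendon markers used to name the tenocyte-like class, and so are Mkx and Thbs4 of those nearest to Kera. Serpinf1, nearest to Dcn, is likewise a marker used to name fibroblast-like cells. Within the family Dcn was close to Lum (0.97), Podn (0.93) and Ogn (0.90) and far from Fmod (0.35), while Fmod and Kera had 0.72. The 19 units include classes with little Dcn or Lum, such as endothelial-like and muscle fibre-like cells, so r spans that gap as well as the states.

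The genes that work with these proteins were taken as fixed lists. Their levels in fibroblast-like and other stromal-like cells, when these 2 sides are compared, are raw CPM without the TMM factors. The log2 differences are from the fit with these factors. In this comparison 13.4% of all genes tested were called higher and 16.9% lower. Collagens whose fibrils they bind were all higher in fibroblast-like than in other stromal-like cells, 10 of 10, with a median log2 difference of 2.78. Col3a1, a fibril collagen of soft tissue, had 18464 ± 1117 CPM in fibroblast-like cells, against 1474 ± 404 CPM in the other stromal-like cells (log2 difference 3.92, SE 0.17, edgeR adjusted p = 8.44e-06). Col14a1, a collagen that coats fibrils, had 1089.9 ± 73.2 CPM, against 91.8 ± 26.8 CPM (log2 difference 3.84, SE 0.15, edgeR adjusted p = 4.94e-06). Proteases that cut the core proteins were 6 higher and 2 lower of 8. Mmp13, a collagenase, had 102 ± 35.6 CPM, against 7.8 ± 3.59 CPM (log2 difference 3.97, SE 0.10, edgeR adjusted p = 1.12e-06), and Tll1, which cleaves procollagens and probiglycan, had 14.1 ± 1.0 CPM, against 113 ± 22.8 CPM (log2 difference -2.76, SE 0.11, edgeR adjusted p = 5.07e-06).

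Among enzymes that build the chains, those of chondroitin and dermatan sulphate were 8 higher and 2 lower of 15 tested in fibroblast-like cells. These and the following counts stand beside 13.4% of all genes called higher and 16.9% lower. Ust, a uronyl sulphotransferase, had 279 ± 8.79 CPM, against 41.8 ± 5.01 CPM (log2 difference 2.98, SE 0.08, edgeR adjusted p = 1.44e-06), and the lower genes were Chst7 and Chst3. Enzymes of keratan sulphate were 0 higher and 4 lower of 6, with a median of -1.71. Those of the linker that joins a chain to its protein were 2 higher (Pxylp1 and Xylt1) and 0 lower of 7. Of 10 other genes of the family 4 were higher, Tsku among them (22.1 ± 1.77 CPM, against 5.2 ± 0.882 CPM (log2 difference 2.31, SE 0.11, edgeR adjusted p = 1.27e-05)), and 3 lower. Chad, a class IV gene of cartilage and tendon, was the lowest, at 0.316 ± 0.238 CPM, against 154 ± 21.2 CPM (log2 difference -8.66, SE 0.28, edgeR adjusted p = 2.42e-06). Of 9 receptors and growth factors that these proteins bind, Egfr and Tgfb2 were higher and Met and Tgfb1 lower, beside the same shares of all genes.

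Tenocyte-like cells were set against fibroblast-like cells on the same lists. Chad had 1308 ± 198 CPM in tenocyte-like cells, against 0.382 ± 0.286 CPM in fibroblast-like cells (log2 difference 11.72, SE 0.41, edgeR adjusted p = 1.03e-11), and Ecm2, the neighbour of Aspn, had 314 ± 46.6 CPM, against 54.3 ± 0.434 CPM (log2 difference 2.61, SE 0.17, edgeR adjusted p = 6.44e-10). Of the keratan sulphate enzymes Chst5 was higher (27.1 ± 12.7 CPM, against 0.0822 ± 0.0258 CPM (log2 difference 8.11, SE 0.54, edgeR adjusted p = 5.46e-07)) and Chst1 lower (0.624 ± 1.08 CPM, against 10.5 ± 2.09 CPM (log2 difference -5.04, SE 0.94, edgeR adjusted p = 0.000424)) of 4 tested. Collagens were 1 higher (Col12a1, 1042 ± 132 CPM, against 327 ± 44 CPM (log2 difference 1.75, SE 0.24, edgeR adjusted p = 9.69e-06)) and 4 lower of 10, beside 7.73% of all genes called lower, with Col3a1 among the lower (6769 ± 983 CPM, against 22359.7 ± 1274 CPM (log2 difference -1.67, SE 0.38, edgeR adjusted p = 0.00239)). The proteases were 0 higher and 4 lower of 8, with Adamts5 at 168 ± 33.8 CPM, against 736 ± 56.2 CPM (log2 difference -2.04, SE 0.31, edgeR adjusted p = 2.85e-05). The enzymes of chondroitin and dermatan sulphate were 0 higher and 1 lower of 14, and those of the linker 0 and 0 of 7.

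Across fibroblast states the calls of the collagens can be set beside those of the 9 genes. In the Eln Igfbp3 state, where 6 of the 9 were higher, collagens were 0 higher and 0 lower of 10, beside 5.42% of all genes called higher. In the Limch1 Akr1c18 state they were 0 higher and 9 lower of 10, beside 9.61% of all genes called lower. Among the lower was Col1a1, the main collagen of tendon and scar, at 2658 ± 494 CPM, against 12620.1 ± 1071 CPM in the mean of the other states (log2 difference -2.08, SE 0.09, edgeR adjusted p = 1.54e-19). The Abca8a Bmp5 state, with 2 of the 9 genes higher, had 0 higher and 5 lower of 10, beside 5.73% of all genes called lower. The Ccn5 Gpx3 state, highest in Bgn, had 2 higher and 0 lower of 10, beside 3.14% of all genes called higher. Col1a1 was among the higher, at 24374 ± 2681 CPM, against 10810.4 ± 908 CPM (log2 difference 1.37, SE 0.06, edgeR adjusted p = 3.07e-17). The Spp1 Cxcl5 state, low in Dcn, Prelp and Ogn, had 3 higher and 0 lower of 10, beside 6.64% of all genes called higher, with Col12a1 among the higher (651 ± 73.7 CPM, against 198 ± 19.9 CPM (log2 difference 1.95, SE 0.12, edgeR adjusted p = 7.31e-15)). Mmp3, a protease that degrades decorin, was higher in the Saa3 Cxcl12 state, at 2944 ± 138 CPM, against 709 ± 123 CPM (log2 difference 2.89, SE 0.10, edgeR adjusted p = 3.87e-20). Omd, the chromosome neighbour of Ogn, was higher in the Eln Igfbp3 state (30.5 ± 11.1 CPM, against 11.6 ± 2.73 CPM (log2 difference 1.90, SE 0.12, edgeR adjusted p = 3.64e-14)) and in the Limch1 Akr1c18 state (29.1 ± 5.37 CPM, against 11.7 ± 3.2 CPM (log2 difference 1.86, SE 0.12, edgeR adjusted p = 1.92e-14)), and lower in the Crabp2 Tgm2 state (1.11 ± 0.0813 CPM, against 14.1 ± 3.64 CPM (log2 difference -3.28, SE 0.21, edgeR adjusted p = 4.81e-15)), as Ogn was.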

How the data were processed

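Droplet libraries (10x Genomics 3′, version 3.1) were made from 3 remixed suspensions, replicates 1 to 3. The authors' deposited matrices hold raw UMI counts per gene and barcode, with no scaling. Per the file headers they were written by version 7.0.0 of the software, whereas Cell Ranger 6.1.2 stands in the submitters' processing notes. Genome build and treatment of intronic reads: not given in the sources used here. The reference names held 32158 of the 32285 gene IDs.

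Barcodes with at least 500 UMIs, 200 genes and at most 20% mitochondrial UMIs were kept, less Scrublet's top-scoring barcodes as doublets (0.8% per 1000 barcodes, which were 295, 598 and 200). No library was a duplicate of another (chi-square per gene between 66.0 and 331). The 9 genes and the other listed genes, 75 in all, took no part in clustering (Leiden, resolution 1.0, 30 components, 15 neighbors, 2000 variable genes, scanpy 1.11.5, Python 3.11.15). Clusters with mixed or missing names were divided once more, to 90. To be named, a cluster had to show 3 or more markers and a score of 0.15 or more that was 1.5 times the next class's; 29 clusters (1212 cells) had no name. States used resolution 0.8 and 20 components.

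Counts were summed per library and class or state, with 20 or more cells in every library, and tested with edgeR 4.0.16 (R 4.3.3): quasi-likelihood, filterByExpr, TMM, and the library as a block. The block rests on the design, since the sums of a library share its suspension. All 9 genes passed the filter in every comparison. P-values were adjusted by Benjamini-Hochberg within each contrast, SE was taken from the F statistic, and the test was checked on simulated data. The 9 genes, lists and markers were chosen with earlier results of these data known. A gene of another list was named when it was among the 2 highest or 2 lowest called of its list and contrast with the same sign in every library. Alternatives were DESeq2 1.42.0, no filter, no block, each library left out, no doublet removal, at least 1000 genes per cell, resolution 2.0, equal class weights (limma 3.58.1), raw CPM and thinning to 1000 UMIs. Leaving out tenocyte-like cells, clusters of few UMIs, the Pde4c Pecam1 state or cells with tendon marker UMIs was chosen after seeing the data. Shares of cells and floors cover counting error only.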

Additional observations from a re-analysis of the deposited data

Results flagged for a closer look

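All 9 genes had UMIs in cells that no comparison used, the 1212 cells of 29 clusters left without a name, at levels above those of neutrophil-like cells. The values are raw CPM of the summed cells. Dcn had 392, 576 and 504 CPM in the unnamed clusters of replicates 1, 2 and 3, a mean of 490.3 CPM, against a mean of 72.9 CPM in neutrophil-like cells. Bgn averaged 331 CPM, against 28.8 CPM, and Lum 126 CPM, against 31.6 CPM. Ogn averaged 35.5 CPM, against 3.27 CPM, Prelp 32.4 CPM, against 4.4 CPM, and Aspn 31.6 CPM, against 7.82 CPM. Kera averaged 4.15 CPM, against 1.07 CPM, and Podn 4.59 CPM, against 1.07 CPM. Fmod averaged 42.8 CPM, against 3.77 CPM, but was uneven, at 3.6, 7.21 and 118 CPM in replicates 1, 2 and 3, so replicate 3 alone carried its mean.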

How the results depend on the processing

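Of 180 tested values of the 9 genes 97 were called, and 18 of these lost the call or turned under at least 1 alternative. Without tenocyte-like cells, the comparison of fibroblast-like with other stromal-like cells gave 8 of the 9 genes higher and 0 lower (5 and 2 with them). Fmod was at 2.76, Kera at 6.73 and Prelp at 0.89 on the log2 scale. Among all genes it gave 2750 higher and 2974 lower (2358 and 2973 with tenocyte-like cells). Without clusters of few UMIs the stromal classes gave 5617 higher and 7228 lower gene calls (9589 and 13013 with them) and 25 lower calls of the 9 genes (41 with them), since 4 contrasts were left of 6. Muscle fibre-like and smooth muscle-like cells then gave no value, and smooth muscle-like cells gave none at a minimum of 1000 genes. With no replicate block, the comparison with other stromal-like cells gave 2258 higher and 2836 lower gene calls (2358 and 2973 with it), the stromal classes 9580 and 12885, and the states 11508 and 9321 (11782 and 9730 with it). The 9 genes had 5 and 2, 5 and 41, and 25 and 19 calls both with and without the block.

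All further values that turned were of uncalled genes. Without cells with tendon marker UMIs, Kera in the Eln Igfbp3 state became -2.70, Fmod in the Abca8a Bmp5 state -0.85, Lum in the Comp Angptl1 state -0.00030, and Fmod and Kera in the Spp1 Cxcl5 state 0.0097 and 0.11. In tenocyte-like cells Bgn became 0.012 with DESeq2 and 0.0033 with doublets kept in, and Bgn without 1 library ran between -0.11 and 0.028, Podn between -0.48 and 0.18 and Lum between -0.51 and 0.10. Fmod in smooth muscle-like cells ran between -0.024 and 0.84 without 1 library. Prelp in the Saa3 Cxcl12 state became -0.0038 with DESeq2, -0.0016 with no filter, -0.0088 with no replicate block and -0.042 without the Pde4c Pecam1 state, and without 1 library it ran between -0.066 and 0.074. With doublets kept in, Fmod in the Abca8a Bmp5 state and Kera in the Mki67 Top2a state were both -0.24, and without 1 library they ran between -0.41 and 0.55 and between -0.0026 and 0.23. The other ranges without 1 library were -0.064 to 0.021 for Dcn in the Lrrc15 Nrep state, -0.074 to 0.015 for Aspn in the Dpp4 Sema3e state, -0.24 to 0.0038 for Prelp in the Gdf10 Ifit1 state and -0.27 to 0.083 for Ogn in the Pde4c Pecam1 state.

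With doublets kept in, the muscle fibre-like calls of Dcn (-1.87, edgeR adjusted p = 0.169), Lum (-1.89, edgeR adjusted p = 0.0767), Podn (-1.12, edgeR adjusted p = 0.0924) and Kera (-1.64, edgeR adjusted p = 0.166) were lost. Without tendon marker cells Dcn (0.91) and Aspn (0.91) in the Eln Igfbp3 state, Ogn in the Comp Angptl1 state (0.90) and Dcn in the Spp1 Cxcl5 state (-0.97) lay under the size threshold. Raw CPM moved 8 of 18 class levels by over 1 SD, and thinning to 1000 UMIs moved 16 of 18 detection shares. The cause of these changes was not tested. Few UMIs limit Kera, Fmod and Podn outside tenocyte-like and fibroblast-like cells.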
